A study of Mus musculus with 46 samples.

Results

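The response of primitive endoderm-induced mouse cells to the genotype label Virma cKO was set against their response to the label Mettl3 cKO. Each response was the log2 change of a gene between cKO libraries and the WT libraries of the same count table, and the difference was the Virma response minus the Mettl3 response. The 8 libraries of these 4 groups were all that the comparison needed, of 46 libraries in the series, and 13872 of 21812 genes had enough counts to be tested. No measured value entered the choice of libraries.

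The cells were EPSCs, mouse pluripotent stem cells held in a medium that keeps them able to form embryonic and extraembryonic lineages, grown in a medium that induces primitive endoderm (PrE). The groups were Virma cKO, Mettl3 cKO, Virma WT and Mettl3 WT, with 2 libraries each. The labels give each library only that genotype: which driver or agent removed the gene, how long before sampling, from how many clones and in how many cultures are points that the sources used here leave unstated. All p-values below therefore rest on the spread between 2 libraries of a group, which may be technical. Tests of the responses and their difference used a spread per gene that was pooled over the 4 groups of both tables. The Mettl3 tests thus also drew on the spread of the Virma libraries. Column names of the Virma table carry the word input, and those of the Mettl3 table do not. Total counts were 11108921 and 11318305 for Virma cKO, 11297785 and 8516622 for Mettl3 cKO, 10590199 and 12250333 for Virma WT, and 12164428 and 10155562 for Mettl3 WT. Replicates differed by more than sampling noise in every group, and by more in the Virma table (chi-square per degree of freedom 6.72 in cKO and 6.07 in WT) than in the Mettl3 table (3.12 in cKO and 3.07 in WT).

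N6-methyladenosine (m6A) is a common internal mark of mRNA, and reader proteins that bind it change how long a transcript lasts, how it is spliced and how it is translated. A writer complex places the mark. METTL3 is its catalytic subunit, which works as a pair with METTL14, and VIRMA is a large scaffold subunit that joins WTAP, ZC3H13, CBLL1 and an RBM15 protein to that pair. PrE is the lineage that parts from the epiblast in the late blastocyst under FGF and ERK signalling, turns on GATA6, GATA4, SOX17 and SOX7, and goes on to form visceral and parietal endoderm.

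The labels were checked first against the targeted genes. Virma had 76.8 and 62 CPM in libraries labelled Virma cKO, against 122 and 125 CPM in Virma WT libraries, and the groups did not overlap. In the other table Virma had 107 and 109 CPM in libraries labelled Mettl3 cKO, against 107 and 115 CPM in Mettl3 WT libraries, and those groups overlapped. The Virma response of this gene was -0.83 ± 0.10 log2 units (± approximate SE throughout) with an adjusted p of 2.9e-06. The difference between the responses was -0.79 ± 0.14 (adjusted p = 5.6e-04). All adjusted p-values come from edgeR's quasi-likelihood test with Benjamini-Hochberg adjustment over all genes tested, and a gene was called at an adjusted p under 0.05. Mettl3 had 30.2 and 32.2 CPM in libraries labelled Mettl3 cKO, against 33.5 and 31.2 CPM in Mettl3 WT libraries. Its counts were thus not lower in the libraries labelled Mettl3 cKO (log2 change -0.05 ± 0.17, adjusted p = 1), and the 2 groups overlapped. Counts over a whole gene cannot show whether a deleted part is missing, and the files hold no counts per exon, so the Mettl3 label could not be checked in this way. Every response below is one to the label.

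The induced state was present in WT cells of both tables. Gata6, Gata4, Sox7, Sox17 and Pdgfra were all detected in every WT library, the lowest value being 30.2 CPM for Sox17, beside the pluripotency genes Pou5f1, Sox2 and Nanog. In bulk RNA, fewer cells of a type and less RNA per cell cannot be told apart, and this holds for each lineage gene below.

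The Virma response was the larger one. With Virma, 5549 genes were called of those tested (40%), 2603 higher and 2946 lower in cKO. With Mettl3 100 genes were called (0.721%), 57 higher (0.411%) and 43 lower (0.31%). These counts come from the fit of both tables together. By limma-voom with a variance for each table they were 4393 with Virma and 783 with Mettl3. The Virma count was 4348 when its table was fitted on its own. The Mettl3 count was 518 when that table was fitted on its own, and 33 to 42 without any one of its 4 libraries. The responses themselves differed for 2726 genes (19.7%). Of these, 1213 were more positive with Virma (8.74%) and 1513 more negative (10.9%), and 850 differed by at least 1 log2 unit, 452 more positive and 398 more negative. The median difference over all tested genes was 0.05 log2 units. Groups did not overlap for 64% of genes with Virma and 44.2% with Mettl3, the background for statements on overlap below. Each table had its own WT libraries, so the responses share no library: over all tested genes they had the same sign in 61.1%, and the Virma response was the larger in size in 81.8%. Across genes, which are not independent replicates, Pearson's r of the 2 responses was 0.31 over all tested genes and 0.507 over the 8849 with a mean of at least 10 CPM.

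Without single Mettl3 libraries the count of differing genes was 1633 to 1827, the lowest without Mettl3 cKO replicate 1, and without single Virma libraries 2570 to 3377. The split between more positive and more negative differences depended on the scaling. It was 940 to 1898 with RLE size factors, 1742 to 991 with library totals and 3935 to 417 with scaling to ribosomal protein genes, which shifted the median difference of all genes to 0.18 and 0.46 log2 units in the last 2. Small changes are therefore relative to the scaling. Changes of sign under a scaling are named below only for gene lists whose median is given. Of the 2726 genes, 1630 were also called under ribosomal protein scaling, and 0 genes called in both had the opposite sign.

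**Figure D1:**
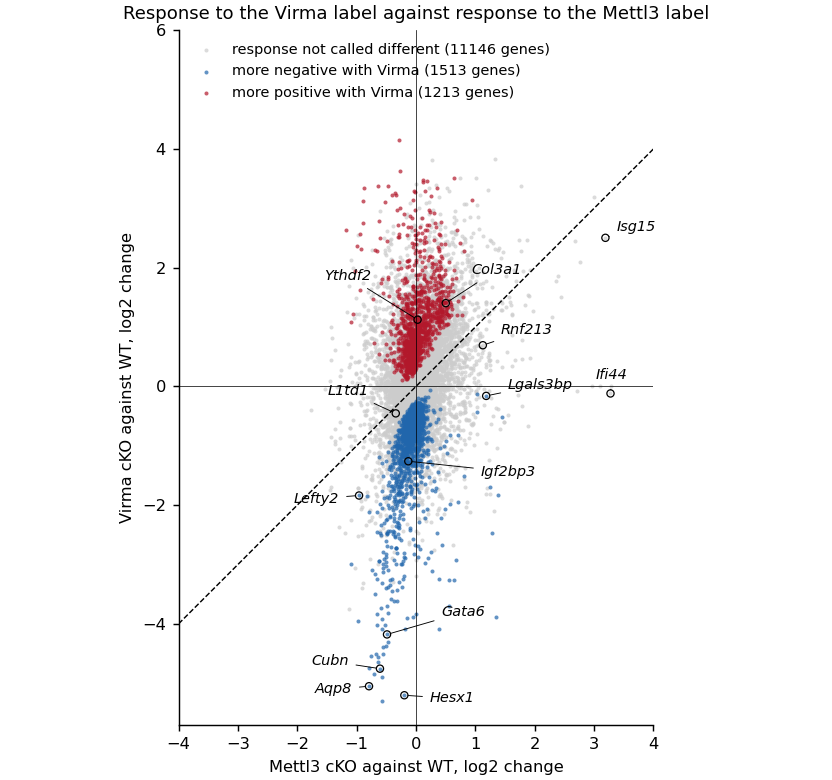
Log2 change of each tested gene in Virma cKO against Virma WT (vertical) and in Mettl3 cKO against Mettl3 WT (horizontal), 2 libraries per group; the dashed line marks equal responses and coloured genes have an adjusted p of the difference under 0.05. The coloured genes spread along the vertical axis, 1513 more negative and 1213 more positive with Virma, while few genes lie far from 0 on the horizontal axis.

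Genes that fell with Mettl3 also fell with Virma, and fell further. All 43 genes lower in Mettl3 cKO were lower in Virma cKO (where 21.2% of all tested genes were), with a median change of -2.44 log2 units with Virma and -0.49 with Mettl3, and 41 of the 43 differed between the labels. Fitting each table on its own called more Mettl3 falls, and 157 of them, 83.5%, had also fallen with Virma, where 18.8% of the 12502 genes tested in both separate fits fell with Virma. The 2 shared falls whose responses did not differ were L1td1, which encodes an RNA-binding protein of pluripotent cells derived from a transposon, and Brwd3, a bromodomain gene whose Mettl3 call was lost in 6 of the 8 fits that left out a library (highest adjusted p 0.630). L1td1 had 1408 and 1439 CPM in libraries labelled Virma cKO, against 1923 and 1978 CPM in Virma WT libraries. With the other label it had 318 and 313 CPM in libraries labelled Mettl3 cKO, against 400.3 and 399 CPM in Mettl3 WT libraries, lower in both cKO libraries there too. The difference was -0.11 ± 0.08 log2 units (adjusted p = 0.33). Its WT level was higher in the Virma table, as the values show. Table and label cannot be told apart for such levels, and only responses within a table are compared.

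Rises were shared as well, but fewer Mettl3 rises differed. Of 57 genes higher in Mettl3 cKO, 53 were higher in Virma cKO (93%, where 18.8% of all tested genes were), with medians of 1.2 log2 units with Virma and 0.52 with Mettl3. The difference was called for 35 of these 53, each time with the larger rise with Virma. The other 18 rose with both labels without a called difference, and included the chemokines Ccl2, Ccl7 and Cxcl1, the adhesion receptor Cd44, the interferon-inducible genes described below, and the cytoplasmic proteins Lgals1 and Anxa2. Without single Mettl3 libraries the Mettl3 call of Ccl2 was kept and those of Ccl7, Cxcl1, Cd44, Lgals1 and Anxa2 were lost at least once (highest adjusted p 0.0648 for Cxcl1 to 0.744 for Ccl7). A p that misses the threshold does not show equal responses: for Ccl2 the difference was 0.46 ± 0.16, with responses of 1.39 ± 0.11 to Virma and 0.94 ± 0.12 to Mettl3.

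Genes of PrE identity stood furthest apart among the lists. The list of PrE regulators holds transcription factor genes, the receptor gene Pdgfra and the adaptor gene Dab2, which is also counted in the uptake list below. Of 12 PrE regulators, 0 were more positive and 11 more negative with Virma, with a median difference of -3.37 log2 units (0.05 over all tested genes), and 11 were more negative with each of RLE, library totals and ribosomal protein scaling too. All 12 fell with Virma, by a median of 3.90 log2 units, where 21.2% of all tested genes fell. With Mettl3 6 fell, where 0.31% of all tested genes did, and the list's median was -0.50. Fitted on its own, the Mettl3 table called 9 of the 12 lower, and 189 of all 13115 genes tested there.

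Gata6, which encodes the transcription factor that starts the lineage, had 4.94 and 5.74 CPM in libraries labelled Virma cKO, against 97.6 and 102 CPM in Virma WT libraries. It had 147 and 157 CPM in libraries labelled Mettl3 cKO, against 209 and 218 CPM in Mettl3 WT libraries. The groups did not overlap in either table, and the fitted fall was 18.1-fold with Virma and 1.4-fold with Mettl3. The difference was -3.69 ± 0.15 log2 units (adjusted p = 2.2e-12). Gata4, its partner in the endoderm programme, had 8.75 and 9.57 CPM in libraries labelled Virma cKO, against 120.2 and 123 CPM in Virma WT libraries. With the Mettl3 label it had 177 and 186 CPM in libraries labelled Mettl3 cKO, against 254 and 256 CPM in Mettl3 WT libraries, and the difference was -3.22 ± 0.13 (adjusted p = 2.1e-12). The Mettl3 falls of Gata6 and Gata4 missed the threshold without some single Mettl3 libraries (highest adjusted p 0.152 and 0.068), and both differences were called without any one of the 8.

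Sox7 and Sox17 encode SOX factors of later PrE. Sox7 had 3.33 and 4.78 CPM in libraries labelled Virma cKO, against 80.1 and 94.6 CPM in Virma WT libraries. It had 97.2 and 90.4 CPM in libraries labelled Mettl3 cKO, against 135 and 131 CPM in Mettl3 WT libraries, again without overlap, and differed by -3.87 ± 0.19 (adjusted p = 7.3e-11). Sox17 had 3.9 and 5.36 CPM in libraries labelled Virma cKO, against 36.7 and 30.2 CPM in Virma WT libraries. Its 28.2 and 33.9 CPM in libraries labelled Mettl3 cKO, against 38.1 and 39.2 CPM in Mettl3 WT libraries kept the same order, but that fall was not called (log2 change -0.32 ± 0.16, adjusted p = 0.83), and the difference was -2.49 ± 0.26 (adjusted p = 2.2e-06).

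Pdgfra, a growth factor receptor on the surface of PrE cells, had 93.2 and 105 CPM in libraries labelled Virma cKO, against 554 and 532 CPM in Virma WT libraries. It had 315 and 328 CPM in libraries labelled Mettl3 cKO, against 409 and 419.8 CPM in Mettl3 WT libraries, and differed by -2.09 ± 0.10 (adjusted p = 2.6e-11). The called Mettl3 falls of Sox7, Pdgfra and Foxq1 were lost without some single Mettl3 libraries (highest adjusted p 0.410, 0.163 and 0.201), and that of Sox7 without any one of the 4. Other regulators with called differences were the forkhead genes Foxq1 (-3.84 ± 0.20) and Foxa2 (-2.18 ± 0.37), the basic helix-loop-helix gene Tcf23 (-4.14 ± 0.38, and -4.77 without Virma cKO replicate 1) and the T-box gene Eomes (-1.38 ± 0.23). Hnf4a, a later endoderm factor, was the one member without a call. It had 0.38 and 0 CPM in libraries labelled Virma cKO, against 2.06 and 1.89 CPM in Virma WT libraries, and 2.68 and 3.55 CPM in libraries labelled Mettl3 cKO, against 5.47 and 7.03 CPM in Mettl3 WT libraries, and its groups did not overlap in either table (adjusted p of the difference = 0.11).

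**Figure D2:**
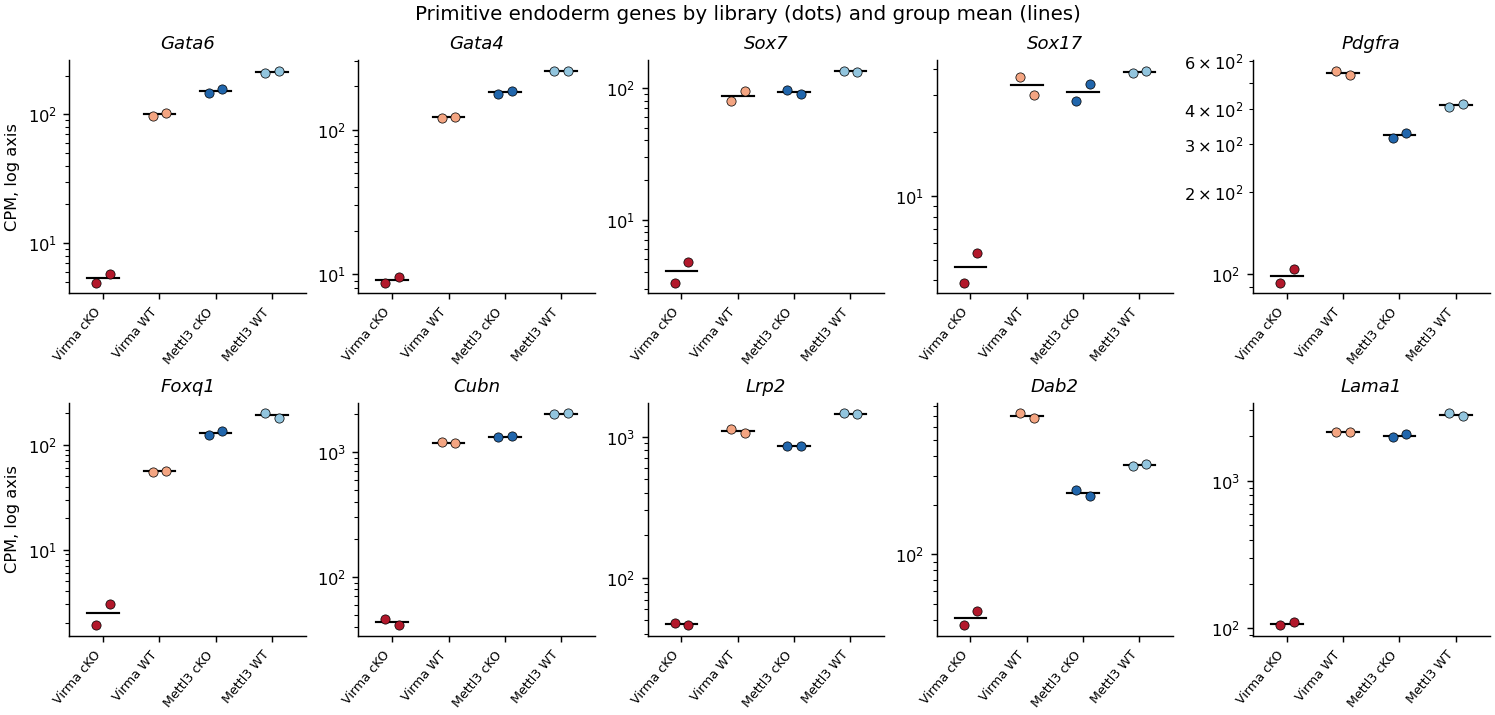
CPM of 10 primitive endoderm genes on log axes in each library (dots), with group means as lines, for the groups labelled Virma cKO, Virma WT, Mettl3 cKO and Mettl3 WT. In every panel the 2 Virma cKO libraries lie far below all other libraries, Gata6 at 4.94 and 5.74 CPM against 97.6 and 102 CPM in Virma WT, while the Mettl3 cKO libraries lie close below their own WT.

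The uptake machinery of visceral endoderm moved with these regulators. Of 12 genes, 9 were more negative and 1 more positive with Virma, with a median of -2.64. Cubn and Lrp2 encode the giant receptors cubilin and megalin, Amn the membrane anchor of cubilin, and Dab2 the adaptor that takes them into coated pits. Cubn had 46.4 and 41 CPM in libraries labelled Virma cKO, against 1198 and 1174 CPM in Virma WT libraries. In the other table it had 1312 and 1349 CPM in libraries labelled Mettl3 cKO, against 2009.6 and 2044 CPM in Mettl3 WT libraries, and the difference was -4.15 ± 0.09 (adjusted p = 7.8e-17). Lrp2 had 47.6 and 46.2 CPM in libraries labelled Virma cKO, against 1128 and 1059 CPM in Virma WT libraries. It had 852 and 861 CPM in libraries labelled Mettl3 cKO, against 1461 and 1442 CPM in Mettl3 WT libraries, a fitted fall of 23.2-fold with Virma and 1.69-fold with Mettl3, and a difference of -3.78 ± 0.09. Amn differed by -3.95 ± 0.42 (-5.81 without Virma cKO replicate 1 and -3.19 without Virma cKO replicate 2) and Dab2 by -3.52 ± 0.12. The water channel gene Aqp8 had 0.856 and 1.24 CPM in libraries labelled Virma cKO, against 44.3 and 37.2 CPM in Virma WT libraries. Its 101 and 104 CPM in libraries labelled Mettl3 cKO, against 176 and 178 CPM in Mettl3 WT libraries gave a difference of -4.26 ± 0.23. The lysosomal protease Ctsl fell with both labels and differed less (-0.80 ± 0.08). The 6 called Mettl3 falls of this list were Aqp8, Cubn, Lrp2, Dab2, Clic6 and Ctsl, of which Clic6 was lost without any one Mettl3 library (highest adjusted p 0.457) and Ctsl without any one library other than Virma cKO replicate 2 (highest adjusted p 0.477).

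Secreted products of mature visceral endoderm were hardly present in any library: Afp was at 0 counts in all 8, and 6 of 15 such genes did not reach the count minimum. Of the 9 tested, 3 were more negative with Virma, the receptor genes Cubn and Amn given above and Apoe (-0.53 ± 0.09). Anterior visceral endoderm genes, which encode signals and factors that pattern the head, were 3 of 5 more negative and 0 more positive. Hesx1, a homeobox gene, had 1.24 and 0.0957 CPM in libraries labelled Virma cKO, against 33.5 and 28.8 CPM in Virma WT libraries. It had 8.64 and 10.2 CPM in libraries labelled Mettl3 cKO, against 12.5 and 9.04 CPM in Mettl3 WT libraries, where the groups overlapped, and its difference was the most negative of all named genes at -5.01 ± 0.52 (adjusted p = 2.0e-06). That difference was -6.73 without Virma cKO replicate 1 and -4.27 without Virma cKO replicate 2. Dkk1, a secreted Wnt inhibitor, differed by -3.49 ± 0.25, and Hhex, another homeobox gene, by -0.95 ± 0.26.

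Basement membrane genes split by component. Of 16, 11 were more negative and 1 more positive, with a median of -0.82 (-0.41 with ribosomal protein scaling). The laminin chains Lama1, Lamb1 and Lamc1 and the collagen IV chains Col4a1 and Col4a2 fell with both labels. Lama1 had 105 and 110.0 CPM in libraries labelled Virma cKO, against 2144 and 2129 CPM in Virma WT libraries. It had 1977 and 2069 CPM in libraries labelled Mettl3 cKO, against 2872 and 2744 CPM in Mettl3 WT libraries, and differed by -3.84 ± 0.08. Lamc1 differed by -2.10 ± 0.07, Lamb1 by -1.96 ± 0.08, Col4a1 by -1.74 ± 0.08 and Col4a2 by -1.39 ± 0.09. Enzymes and chaperones that mature collagen followed, P4ha2 by -2.01 ± 0.15, P4ha1 by -1.43 ± 0.15, Serpinh1 by -0.92 ± 0.08 and Plod2 by -0.61 ± 0.12. The nidogens Nid1 (-0.01 ± 0.10) and Nid2 (0.26 ± 0.11) were not called. Fn1, fibronectin, was the member more positive with Virma (0.33 ± 0.08, adjusted p = 0.00522), a call lost without Virma cKO replicate 1 or either Virma WT library (highest adjusted p 0.199). It was lower in PrE than in epiblast cells of the sorted libraries described below (-2.10 ± 0.11 log2 units, PrE-E over EPI-E).

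Parietal endoderm genes had no common direction, with 2 of 12 more positive, 3 more negative and a median of 0.35. Srgn, a proteoglycan core, had 9.7 and 7.27 CPM in libraries labelled Virma cKO, against 270.5 and 244 CPM in Virma WT libraries. It had 134 and 119 CPM in libraries labelled Mettl3 cKO, against 182 and 194 CPM in Mettl3 WT libraries, and differed by -4.32 ± 0.16. Pth1r, the receptor for parathyroid hormone-related protein, differed by -2.57 ± 0.16 and Sparc by -0.70 ± 0.08. Pdpn (0.99 ± 0.15) and Grem1 (1.09 ± 0.28) were more positive with Virma, and fibroblasts express both.

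Naive pluripotency genes responded to Virma and hardly to Mettl3. Of 16, 11 were more negative with Virma and 0 more positive, with a median of -1.09 (-0.68 with ribosomal protein scaling, where 9 were more negative and 2 more positive). With Virma 12 of 16 fell, and with Mettl3 1 fell, Klf5, a call lost without any one library other than Virma cKO replicate 2 (highest adjusted p 0.415). The list's median Mettl3 response was -0.02 against -1.13 with Virma. Nanog, the homeobox factor that PrE cells turn off, had 25 and 19 CPM in libraries labelled Virma cKO, against 44.5 and 47.5 CPM in Virma WT libraries. It had 168 and 156 CPM in libraries labelled Mettl3 cKO, against 154 and 159 CPM in Mettl3 WT libraries, where the groups overlapped, and differed by -1.11 ± 0.16 (adjusted p = 6.2e-05). Klf5, a Krüppel-like factor, had 169.7 and 171 CPM in libraries labelled Virma cKO, against 538 and 566 CPM in Virma WT libraries. Its 478 and 499.7 CPM in libraries labelled Mettl3 cKO, against 586 and 602 CPM in Mettl3 WT libraries gave a difference of -1.41 ± 0.09. Tet2, which oxidises methylated DNA, differed by -1.41 ± 0.10, the Krüppel-like factor Klf4 by -1.19 ± 0.12, and the oocyte and stem cell gene Dppa5a by -1.26 ± 0.09. Esrrb, an orphan nuclear receptor, was an exception, at -0.00 ± 0.10, with 209 and 228 CPM in libraries labelled Virma cKO, against 227 and 212 CPM in Virma WT libraries.

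The core factors were less affected. Of 10 core pluripotency genes, 3 were more negative and 0 more positive, with a median of -0.15 that became 0.27 under ribosomal protein scaling. Tdgf1, a Nodal co-receptor, differed by -1.82 ± 0.12, Pou5f1 by -0.71 ± 0.10 and Dppa2 by -0.55 ± 0.15. Pou5f1 had 250.0 and 219 CPM in libraries labelled Virma cKO, against 396 and 394 CPM in Virma WT libraries. With the Mettl3 label it had 502 and 529 CPM in libraries labelled Mettl3 cKO, against 547 and 516 CPM in Mettl3 WT libraries. Sox2 had 108 and 118 CPM in libraries labelled Virma cKO, against 126 and 117 CPM in Virma WT libraries, overlapping groups, and differed by -0.05 ± 0.12 (adjusted p = 0.82). Genes of PrE and of naive pluripotency were thus both lower in Virma cKO. Formative genes, which rise as epiblast leaves the naive state, were mixed, with 2 of 12 more positive and 3 more negative, and their median of -0.21 became 0.18 with ribosomal protein scaling. Sox4 (0.87 ± 0.16) and the ETS factor Etv4 (0.47 ± 0.16) were more positive, and the DNA methyltransferases Dnmt3b (-0.81 ± 0.09) and Dnmt3a (-0.45 ± 0.09) and the forkhead gene Foxd3 (-1.65 ± 0.54, and -2.70 without Virma cKO replicate 1) more negative.

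Signalling genes differed one by one rather than as pathways. In the FGF and ERK list, 3 of 13 were more positive and 4 more negative, and the median of 0.20 became -0.20 with DESeq2. Among receptors, Fgfr2, which PrE precursors use together with Fgfr1, was more negative (-1.19 ± 0.21), as was Fgfr3 (-1.55 ± 0.48), and Fgfr1 more positive (0.59 ± 0.13). Fgfr2 had 19.7 and 29.5 CPM in libraries labelled Virma cKO, against 79.9 and 64.7 CPM in Virma WT libraries. Fgfr1 had 121 and 107 CPM in libraries labelled Virma cKO, against 67.7 and 63.9 CPM in Virma WT libraries, so the receptors moved in opposite directions within the Virma table. The feedback inhibitors Spry4 (-1.16 ± 0.13) and Spry2 (-0.89 ± 0.13) were more negative and Spred1 (0.43 ± 0.15) more positive, while the ligand gene Fgf4 was not called (-0.43 ± 0.19). In the Nodal and BMP list 1 of 12 was more positive, the ligand Nodal (0.93 ± 0.26), and 4 were more negative: the co-receptor Tdgf1, the ligands Bmp6 (-1.69 ± 0.32) and Bmp4 (-0.97 ± 0.21), and the Nodal inhibitor Lefty2 (-0.88 ± 0.15), which also fell with Mettl3 (-0.96 ± 0.10, adjusted p = 2.7e-05). In the Wnt list 2 of 13 were more positive, the transcription factor genes Tcf7 (0.77 ± 0.18) and Sp5, and 3 more negative, the secreted inhibitors Dkk1 and Sfrp1 (-0.92 ± 0.19) and the receptor Fzd5 (-0.57 ± 0.15). Medians of both lists, -0.21 and -0.23, changed sign with ribosomal protein scaling.

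In the list of interferon-inducible genes the median Mettl3 response was larger than the median Virma response. These genes answer type I interferon through transcription factors that bind a promoter motif, the interferon-stimulated response element. Of 18 tested genes, 0 were more positive and 2 more negative with Virma, with a median difference of -0.61. With Virma 5 rose and 1 fell, and with Mettl3 5 rose and 0 fell, where 18.8% of all tested genes rose with Virma and 0.411% with Mettl3. The list's median response was 1.26 log2 units with Virma and 1.69 with Mettl3, and it included genes below 5 CPM. Fitted on its own, the Mettl3 table called 12 of 18 higher, and 329 of all 13115 genes tested there. The Virma table called 3 of the 13 it could test, where 1984 of its 13113 tested genes were called higher.

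A first set rose with both labels. Isg15, a ubiquitin-like protein, had 2.47 and 1.63 CPM in libraries labelled Virma cKO, against 0.114 and 0.298 CPM in Virma WT libraries. It had 10.7 and 12.3 CPM in libraries labelled Mettl3 cKO, against 0.887 and 1.32 CPM in Mettl3 WT libraries. Ifit1, which binds foreign RNA ends, had 1.62 and 4.21 CPM in libraries labelled Virma cKO, against 0 and 0.298 CPM in Virma WT libraries. Its values with the other label were 4.89 and 4.76 CPM in libraries labelled Mettl3 cKO, against 0.443 and 0.439 CPM in Mettl3 WT libraries. Neither gene's groups overlapped in either table, and the difference was not called for either (adjusted p = 0.95 and 0.75), at levels of a few CPM. Outside that list, Ifitm3, a membrane protein that blocks virus entry, had 45.3 and 45.2 CPM in libraries labelled Virma cKO, against 25.3 and 27.5 CPM in Virma WT libraries. It had 86.4 and 87 CPM in libraries labelled Mettl3 cKO, against 53.5 and 51.5 CPM in Mettl3 WT libraries, and differed by 0.05 ± 0.16. B2m, the light chain of MHC class I, had 32.8 and 31.1 CPM in libraries labelled Virma cKO, against 16.9 and 13.4 CPM in Virma WT libraries. It had 38.5 and 38.3 CPM in libraries labelled Mettl3 cKO, against 22.9 and 22.8 CPM in Mettl3 WT libraries, and differed by 0.33 ± 0.22. Antigen presentation genes as a list had 0 of 9 called in either direction. Oasl2, an oligoadenylate synthetase-like gene, had 8.75 and 9.95 CPM in libraries labelled Virma cKO, against 1.26 and 1.79 CPM in Virma WT libraries, and differed by 0.60 ± 0.49. The large ubiquitin ligase gene Rnf213 had 74 and 84.1 CPM in libraries labelled Virma cKO, against 54.8 and 43.1 CPM in Virma WT libraries. It had 157 and 159 CPM in libraries labelled Mettl3 cKO, against 71.9 and 72.4 CPM in Mettl3 WT libraries, a larger rise that was not called different (-0.43 ± 0.15, adjusted p = 0.0566).

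Other genes rose with Mettl3 and were not called with Virma, and the difference itself was called. Lgals3bp, a secreted glycoprotein, had 7.8 and 5.55 CPM in libraries labelled Virma cKO, against 5.83 and 9.03 CPM in Virma WT libraries. It had 31.4 and 29.6 CPM in libraries labelled Mettl3 cKO, against 14.2 and 12.5 CPM in Mettl3 WT libraries, and differed by -1.34 ± 0.35 (adjusted p = 0.0111). Helz2, a helicase coactivator, had 7.51 and 9.66 CPM in libraries labelled Virma cKO, against 11.6 and 7.35 CPM in Virma WT libraries. Its 28.7 and 30.1 CPM in libraries labelled Mettl3 cKO, against 13.7 and 14.8 CPM in Mettl3 WT libraries gave a difference of -1.16 ± 0.33 (adjusted p = 0.0194). For Lgals3bp and Helz2 the Mettl3 groups did not overlap, while the Virma groups overlapped. The difference of Lgals3bp was lost without Mettl3 cKO replicate 1 or Mettl3 WT replicate 2, and that of Helz2 without any one Mettl3 library (highest adjusted p 0.0669 and 0.0862), and both were lost with ribosomal protein scaling (adjusted p = 0.056 and 0.103). The Mettl3 rises of these 2 genes, and those of Ifit1, B2m, Oasl2 and Ifi44, were lost in the joint fit without any one Mettl3 library (highest adjusted p 0.310 for Oasl2 to 0.671 for Ifi44). Fitted on its own, the Mettl3 table gave the rises of Lgals3bp and Helz2 adjusted p-values of 9.5e-07 and 4.6e-06. Xaf1 also differed (-1.96 ± 0.50, adjusted p = 0.00987), although neither response was called, and had 8.18 and 8.61 CPM in libraries labelled Virma cKO, against 9.15 and 14.9 CPM in Virma WT libraries. Ifi44, the largest Mettl3 rise, had 5.81 and 5.77 CPM in libraries labelled Mettl3 cKO, against 0.591 and 0.263 CPM in Mettl3 WT libraries, was at or below 0.666 CPM in the Virma table, and missed the threshold for the difference (adjusted p = 0.0649).

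The promoters of 5 of these genes are shown as examples, and they do not stand for all members of either kind. RefSeq sequences of the 160 bases before the annotated start were taken from build GRCm38.p6, 5′ to 3′ on the gene's strand, with matches in capitals to the core of the response element on either strand, GAAA, any 2 bases, then GAAA. The windows are chr4:156200819-156200978 (minus strand) for Isg15, chr19:34640729-34640888 (plus) for Ifit1, chr2:122147527-122147686 (plus) for B2m, chr11:118401960-118402119 (minus) for Lgals3bp and chr2:181242028-181242187 (minus) for Helz2.
Isg15: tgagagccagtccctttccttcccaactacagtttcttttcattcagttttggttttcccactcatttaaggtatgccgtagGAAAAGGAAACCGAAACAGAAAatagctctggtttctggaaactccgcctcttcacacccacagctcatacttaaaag
Ifit1: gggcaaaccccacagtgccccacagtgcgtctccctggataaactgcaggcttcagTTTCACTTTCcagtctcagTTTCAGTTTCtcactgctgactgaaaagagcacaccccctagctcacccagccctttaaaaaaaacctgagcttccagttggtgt
B2m: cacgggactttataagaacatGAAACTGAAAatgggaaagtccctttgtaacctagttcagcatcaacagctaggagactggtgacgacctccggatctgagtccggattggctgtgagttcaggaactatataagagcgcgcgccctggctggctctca
Lgals3bp: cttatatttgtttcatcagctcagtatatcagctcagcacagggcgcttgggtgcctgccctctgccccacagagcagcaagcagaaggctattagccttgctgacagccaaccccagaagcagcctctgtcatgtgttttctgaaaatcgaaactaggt
Helz2: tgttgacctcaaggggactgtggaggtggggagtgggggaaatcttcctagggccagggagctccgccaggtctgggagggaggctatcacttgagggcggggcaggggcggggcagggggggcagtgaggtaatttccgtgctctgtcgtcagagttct
The match of Isg15 began 78 bases before the start, those of Ifit1 104 and 85 bases before it, and that of B2m 139 bases before it. The Lgals3bp and Helz2 windows held none, which says only that these letters are not in the windows. Over windows of 300 bases around the start, the core was in 60.0% of the 15 matched interferon genes and in 3.44% of all 32851 windows. It was in 11.9% of the 42 matched genes that rose with Mettl3, 3.75% of genes more negative with Virma and 3.45% of those more positive. Among other genes given above that rose with both labels, the window of Ifitm3 held the core. Those of Oasl2 and Rnf213, like those of Ifi44 and Xaf1, did not.

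**Figure D3:**
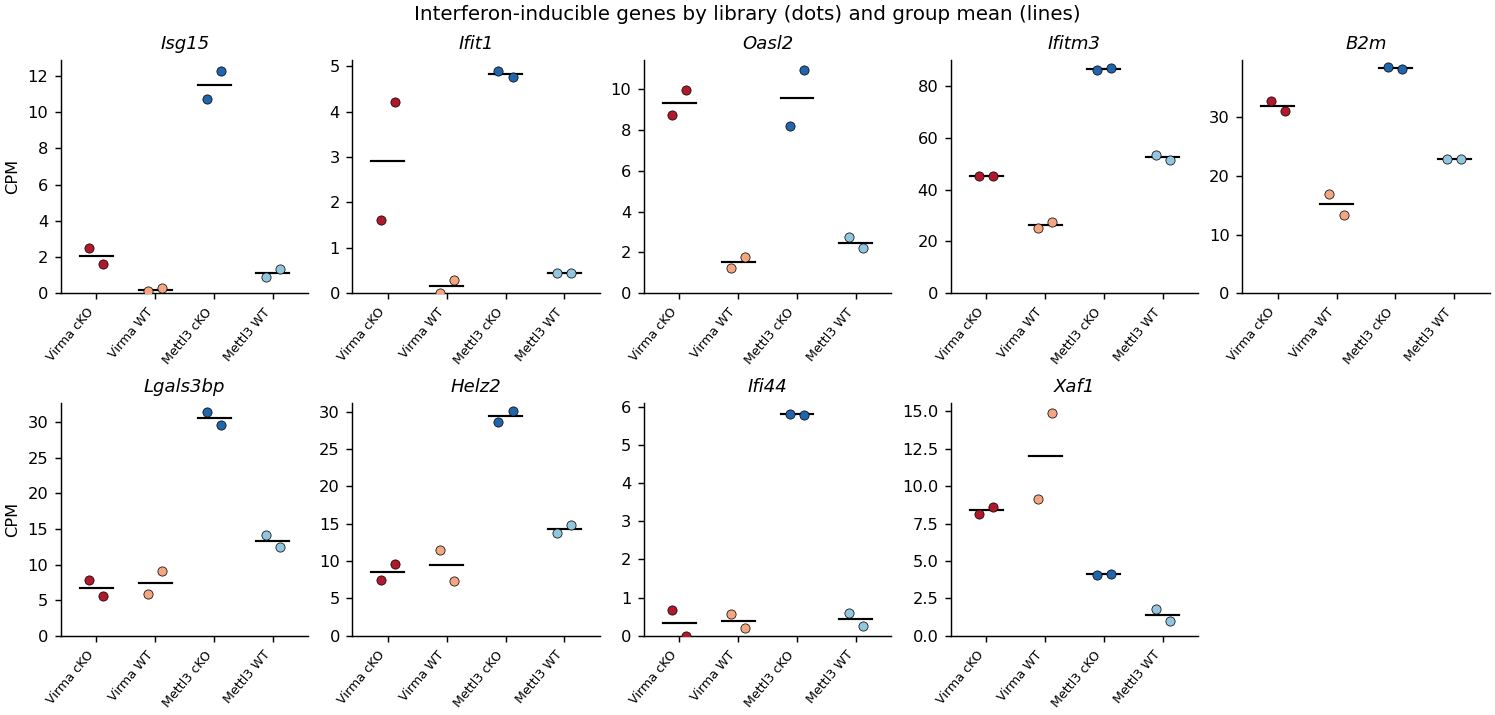
CPM of 9 interferon-inducible genes on linear axes in each library (dots), with group means as lines, for the groups labelled Virma cKO, Virma WT, Mettl3 cKO and Mettl3 WT. The upper row rises in both cKO groups over its own WT; in the lower row Lgals3bp stands at 31.4 and 29.6 CPM in Mettl3 cKO against 14.2 and 12.5 CPM in Mettl3 WT, while Virma cKO lies at 7.8 and 5.55 CPM against 5.83 and 9.03 CPM in Virma WT.

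Among the m6A writers, 2 of 8 were more positive and 2 more negative, and the median of -0.01 changed sign with library totals, ribosomal protein scaling and the replicate block. Wtap, the adaptor of the catalytic pair, had 178 and 172 CPM in libraries labelled Virma cKO, against 116 and 118 CPM in Virma WT libraries. It had 112 and 100.3 CPM in libraries labelled Mettl3 cKO, against 105 and 121 CPM in Mettl3 WT libraries, overlapping groups, and differed by 0.67 ± 0.13 (adjusted p = 9.7e-04). Zc3h13, which holds WTAP in the nucleus, was more positive by 0.38 ± 0.10. Rbm15b, which recruits the complex to RNA, was more negative by -0.63 ± 0.16, as was Virma itself. Mettl14 was not called (-0.17 ± 0.17). With the Mettl3 label 0 of the 8 writers were called.

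Readers and erasers moved apart from one another in the same way, with 2 of 13 more positive and 4 more negative. Ythdf2, the reader that marks m6A mRNA for decay, had 264 and 263 CPM in libraries labelled Virma cKO, against 109 and 133 CPM in Virma WT libraries. It had 139 and 132 CPM in libraries labelled Mettl3 cKO, against 135 and 132 CPM in Mettl3 WT libraries, and differed by 1.10 ± 0.12 (adjusted p = 5.2e-06). The nuclear reader Ythdc1 differed by 0.70 ± 0.09. In the opposite direction, Igf2bp3, a reader that protects bound mRNA, had 44 and 50.5 CPM in libraries labelled Virma cKO, against 105 and 122 CPM in Virma WT libraries. It had 113 and 106 CPM in libraries labelled Mettl3 cKO, against 121 and 119.5 CPM in Mettl3 WT libraries, and differed by -1.13 ± 0.14 (adjusted p = 1.6e-05). Igf2bp1 (-0.37 ± 0.07), Hnrnpc (-0.42 ± 0.08) and Fmr1 (-0.37 ± 0.12) were more negative, too, although Igf2bp1 and Fmr1 turned slightly positive under ribosomal protein scaling (0.049 and 0.042). The demethylase genes Fto (0.23 ± 0.14) and Alkbh5 (0.20 ± 0.11) were not called.

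Targets of p53, which halt the cell cycle or start apoptosis, rose with Virma. Of 17, 7 were more positive and 1 more negative, with a median of 0.43. With Virma 13 rose and 1 fell, and with Mettl3 0 were called, although all 17 had a positive Mettl3 estimate, between 0.03 and 0.56. Cdkn1a, the cell cycle inhibitor p21, had 66.5 and 58.9 CPM in libraries labelled Virma cKO, against 27.2 and 26.3 CPM in Virma WT libraries. It had 89.1 and 95.9 CPM in libraries labelled Mettl3 cKO, against 74.5 and 65.3 CPM in Mettl3 WT libraries, and differed by 0.82 ± 0.16 (adjusted p = 0.00144). Phlda3, an inhibitor of AKT, differed by 1.00 ± 0.32, the nuclease Aen by 0.91 ± 0.15, the RNA-binding protein Zmat3 by 0.69 ± 0.15 and Mdm2, the ligase that degrades p53, by 0.43 ± 0.10. Pmaip1, a pro-apoptotic BH3 protein, was the member more negative (-0.43 ± 0.13). Genes of the integrated stress response, driven by ATF4, were 7 of 14 more positive and 3 more negative. Trib3 (1.46 ± 0.22), the cystine carrier Slc7a11 (1.32 ± 0.30) and Atf4 (0.55 ± 0.10) were more positive. Herpud1 (-1.01 ± 0.27) and the chaperone Hspa5 (-0.45 ± 0.07), which serve the endoplasmic reticulum, and Atf3 (-0.96 ± 0.29) were more negative. Immediate early genes were 3 of 15 more positive, Fos (1.11 ± 0.25), Fosb (1.21 ± 0.26) and Egr1 (0.42 ± 0.11), and 3 more negative, Ier2 (-1.10 ± 0.12), Klf6 (-0.61 ± 0.11) and Atf3.

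Lists of highly expressed housekeeping genes were more negative with Virma by amounts close to the scaling shifts. Of 14 proliferation genes, 11 were more negative and 0 more positive, with a median of -0.47 that was -0.05 under ribosomal protein scaling, where 1 was more negative and 2 more positive. Ccnb1, the mitotic cyclin, differed by -0.75 ± 0.11 and Ccna2 by -0.71 ± 0.13. Of 13 glycolysis and hypoxia genes, 9 were more negative and 0 more positive, with a median of -0.35 (0.06 under ribosomal protein scaling). Ldha, lactate dehydrogenase, had 136 and 124 CPM in libraries labelled Virma cKO, against 333 and 307 CPM in Virma WT libraries. It had 682 and 688 CPM in libraries labelled Mettl3 cKO, against 786 and 756 CPM in Mettl3 WT libraries, and differed by -1.12 ± 0.09. Pfkl, the liver phosphofructokinase, fell with both labels (-1.11 ± 0.08 with Virma and -0.48 ± 0.08 with Mettl3). Cholesterol synthesis genes were 7 of 13 more negative and 1 more positive (median -0.41, and 0.01 under ribosomal protein scaling), led by Cyp51 (-0.93 ± 0.11). Ribosomal protein genes were 63 of 83 more negative and 1 more positive, with a median of -0.42 that their own scaling sets to about 0. Mitochondrially encoded genes were 1 of 13 more positive and 2 more negative. Epithelial genes were 3 of 12 more positive, the cadherin Cdh1 (0.47 ± 0.09) and the keratins Krt8 (0.71 ± 0.22) and Krt18 (0.91 ± 0.30), and 3 more negative, among them Epcam (-0.69 ± 0.13).

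**Figure D4:**
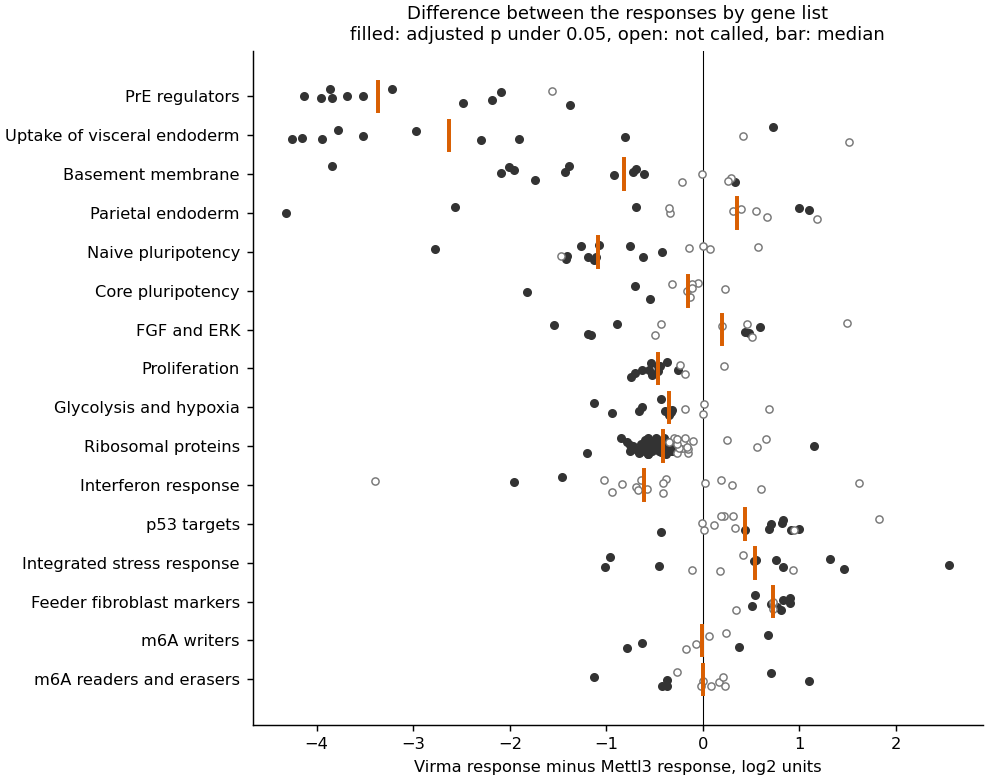
Difference between the responses (Virma response minus Mettl3 response, log2 units) of each tested member of 16 gene lists, filled where the adjusted p was under 0.05 and open where not, with the list's median as a bar. PrE regulators (median -3.37) and the uptake genes of visceral endoderm (median -2.64) lie far below 0, feeder fibroblast markers (median 0.72) above it.

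Markers of fibroblasts, the cells on which stem cells are often grown, rose with both labels and more with Virma. Of 12 markers, 8 were more positive and 0 more negative (median 0.72, and 0.65 to 1.14 over the other scalings), all 12 rose with Virma and 8 with Mettl3. Their summed share of counts was 0.273% and 0.269% in Virma cKO against 0.0988% and 0.0978% in Virma WT, and 0.342% and 0.358% in Mettl3 cKO against 0.249% and 0.237% in Mettl3 WT. Col3a1, a fibrillar collagen, had 822 and 813 CPM in libraries labelled Virma cKO, against 304 and 314 CPM in Virma WT libraries. It had 635 and 654 CPM in libraries labelled Mettl3 cKO, against 466 and 444 CPM in Mettl3 WT libraries, and differed by 0.90 ± 0.08 (adjusted p = 3.7e-07). Col1a1 differed by 0.83 ± 0.09 and Col5a1 by 0.90 ± 0.10. The genes that rose with both labels, including Ccl2, Cd44, Pdpn and Lgals1, moved with these markers, as did B2m and Ifitm3, and the part of fibroblast RNA in those results was not tested. Other cell types showed less. Trophoblast markers were 2 of 11 more negative, Tead4 (-0.66 ± 0.23) and Tfap2c (-0.70 ± 0.18), with Prl3d1 at 0 counts in all 8 libraries. Neural markers were 1 of 6 more positive, Nes (0.86 ± 0.18), and mesoderm markers 1 of 6, Pdgfrb (0.85 ± 0.28), a gene fibroblasts also express. Of the blood markers, Hba-a1 and Hbb-bs were at 0 counts in all 8 libraries, and 1 of 3 tested was more positive, Cd34 (1.15 ± 0.36). Of 13 genes of the 2-cell-like state 4 were tested and 0 called.

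Apart from the lists, the most negative differences among genes with a mean of at least 10 CPM included Tfec (-4.01 ± 0.49, between -5.54 and -3.41 without single libraries), a transcription factor of the MITF family, and Nostrin (-3.93 ± 0.23), a regulator of nitric oxide synthase traffic, beside the PrE and uptake genes already given. The most positive ones held genes of varied function. Slc48a1, a haem transporter, had 19.6 and 14.6 CPM in libraries labelled Virma cKO, against 3.2 and 2.38 CPM in Virma WT libraries. It had 21.9 and 26.8 CPM in libraries labelled Mettl3 cKO, against 18.9 and 17.7 CPM in Mettl3 WT libraries. Virma WT was the lowest group, a level for which table and label cannot be told apart. The difference was 2.14 ± 0.34. Hyal2, a hyaluronidase, had 26.1 and 23.2 CPM in libraries labelled Virma cKO, against 7.55 and 3.28 CPM in Virma WT libraries. It differed by 1.95 ± 0.33, and by 1.32 without Virma WT replicate 2. Tpst2, a tyrosine sulfotransferase, differed by 1.94 ± 0.24, Ppp1r16a, a regulatory subunit of protein phosphatase 1, by 1.96 ± 0.42 (2.85 without Virma WT replicate 1 and 1.18 without Virma WT replicate 2), and the semaphorin gene Sema6a by 1.77 ± 0.34. Trp53rkb (2.31 ± 0.41) has a near-identical copy, Trp53rka, so its counts are uncertain.

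Few genes were called in opposite directions, a count limited by the Mettl3 calls it needs, 100 in the joint fit. At the threshold 0 genes were called in both responses with opposite signs by edgeR, where 52 were at an unadjusted p under 0.05 in both. DESeq2 called 1, and limma-voom with a variance for each table, with 783 Mettl3 calls, called 18. Fits of each table on its own called 7, of which 5 fell with Virma and rose with Mettl3. So few calls do not show that opposite responses are rare: 61.1% of all tested genes had the same sign in both. Peg10, an imprinted gene derived from a retrotransposon, had 254 and 249 CPM in libraries labelled Virma cKO, against 641 and 645 CPM in Virma WT libraries. It had 519.6 and 515 CPM in libraries labelled Mettl3 cKO, against 453 and 453 CPM in Mettl3 WT libraries, without overlap in either table, and differed by -1.54 ± 0.08 (adjusted p = 1.5e-10). Tmsb4x, thymosin beta 4, which binds actin monomers, had 26.4 and 26.5 CPM in libraries labelled Virma cKO, against 56.3 and 45 CPM in Virma WT libraries. Its 237 and 234 CPM in libraries labelled Mettl3 cKO, against 193 and 197 CPM in Mettl3 WT libraries also kept the groups apart, and it differed by -1.20 ± 0.14 (adjusted p = 7.8e-06). Own-table adjusted p-values of the Mettl3 rise were 0.0135 for Peg10 and 0.00297 for Tmsb4x. These genes were chosen after their values were seen.

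Libraries that share no sample with these tables describe the genes further. PrE-E and EPI-E are CD140+ and CD140- cells sorted from induced cultures, with 2 libraries each, and 57.7% of 12423 genes were called between them. Of the 1491 genes more negative with Virma that were tested there, 41.9% were higher and 35.7% lower in PrE-E, against 28.4% and 29.2% of all genes tested in both (28.3% and 29.5% of all 12423). Of those more positive, 21.1% were higher and 37.9% lower in PrE-E. Genes more negative with Virma had a higher mean level (median 102 CPM) than those more positive (38 CPM) and all tested genes (20.7 CPM), and the part of level in these shares was not tested.

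Among sets of genes by lineage difference, the set far higher in PrE-E had the highest share more negative with Virma. Of 322 genes at least 4 log2 units higher in PrE-E, 39.4% were more negative with Virma and 1.86% more positive. Their medians were -0.93 for the Virma response and -0.29 for the Mettl3 response. With Mettl3 33 of the 322 fell, where 0.31% of all tested genes did. Of 434 genes at least 4 log2 units lower in PrE-E, 10.6% were more negative and 14.3% more positive. Where the fractions differed by under 0.5 log2 units without a call, 9.18% of 3223 genes were more negative and 9.71% more positive. Of the 43 Mettl3 falls 41, 95.3%, were higher in PrE-E, while L1td1 and Lefty2 were lower there (-1.51 ± 0.04 and -2.59 ± 0.45 log2 units).

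**Figure D5:**
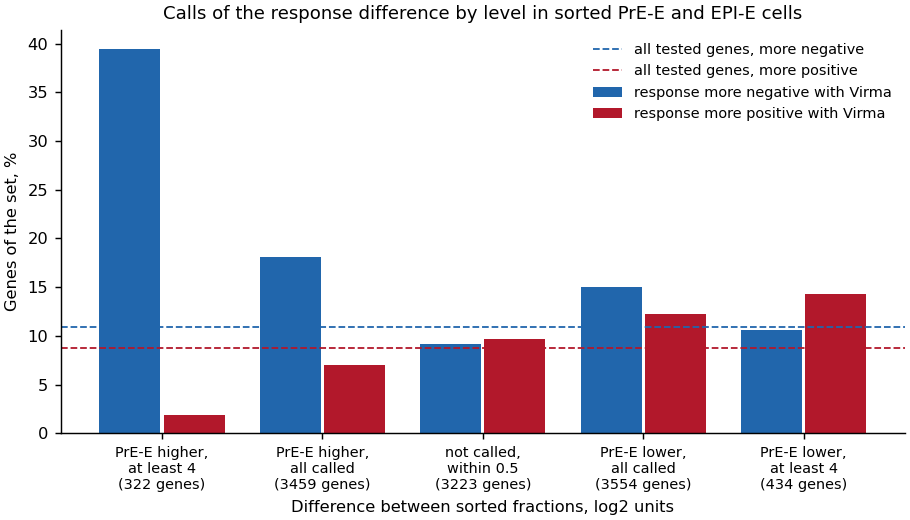
Share of genes (%) whose response was called more negative (blue) or more positive (red) with Virma, in sets by their difference between sorted PrE-E and EPI-E cells (2 libraries each); dashed lines are the shares over all tested genes, 10.9% and 8.74%. The set at least 4 log2 units higher in PrE-E reaches 39.4% more negative and 1.86% more positive, and the other sets stay at 18.1% or below.

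Relative transcript loss was read in 6 libraries of PrE-induced cells after 0, 1 and 2 h of actinomycin D, which blocks transcription. A slope is in log2 units per hour relative to the average transcript, and 67.1% of 13543 genes had a called slope. Genes more negative with Virma had a median slope of 0.07 and those more positive -0.09, against -0.01 over all genes. Called negative slopes, which mean faster loss than average, were found for 32.2% of genes more negative, 47.1% of genes more positive, 35.6% of all genes tested in both and 34.2% of all 13543. Ythdf2 (-0.42 ± 0.03) and Cdkn1a (-0.29 ± 0.04) were among the genes more positive with a negative slope. Of the 12 PrE regulators 11 had a called negative slope and 0 a positive one, among them Gata6 (-0.58 ± 0.02), Gata4 (-0.47 ± 0.02) and Sox17 (-1.19 ± 0.05). Other endoderm genes more negative with Virma had positive slopes, such as Srgn (0.25 ± 0.02), Amn (0.35 ± 0.05) and Aqp8 (0.14 ± 0.02), named after their values were seen.

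Transcript structure was compared over the longest annotated protein-coding transcript of each gene, matched by symbol for 97.5% of tested genes. Genes more positive with Virma had longer transcripts, with a median of 4094 bases, than those more negative, with 2917, and all tested genes, with 3200. Their longest exon had a median of 2004 bases, against 1339 and 1544. In 4 bins of equal size by transcript length, from short to long, the share more positive was 5.23%, 7.16%, 8.6% and 14.3%, and the share more negative 12.8%, 11.4%, 10.4% and 8.63%, while the median mean level of those bins was 14.5, 16.8, 23 and 34.5 CPM. GGACT, a core form of the m6A motif, occurred 1.13 times per kilobase in genes more positive, 0.976 in genes more negative and 1.05 in all, counted on the transcript strand. Spearman's rho of the difference with transcript length was 0.10 over 13529 genes, a weak relation, and depth moved with length.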

How the data were processed

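Total RNA was isolated with TRIzol and made into libraries with 2 kits for Illumina sequencing, per the labels' protocols, and no source used here ties a kit to a library. The submitters' processing notes name build mm39, the aligner STAR 2.7.11b, Subread, DESeq2, Trim Galore and FastQC 0.12.1. Annotation and strand setting are not given there, so overlapping and antisense genes cannot be told apart. The authors deposited raw whole-number counts per gene, unnormalized, in 7 tables, of which 4 were used and 0 columns were left out.

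The Virma and Mettl3 tables were joined on gene symbol and fitted together in R 4.3.3 by edgeR 4.0.16, with TMM factors, filterByExpr at its count minimums of 10 per library and 15 summed, a mean per group, a robust quasi-likelihood fit, a prior count of 2, and Benjamini-Hochberg adjustment. The Virma response, the Mettl3 response and their difference are contrasts of that fit. The SE given with a log2 change is its size divided by the square root of the test's F statistic. It is approximate, above all for genes of few counts. CPM use the TMM-scaled total. The sorted libraries and the actinomycin D libraries at 0, 1 and 2 h were each fitted on their own table. Totals of 8516622 to 12250333 counts leave genes of a few CPM imprecise. The checks of 1 table against the other rest on 2 libraries a group; same-numbered libraries did not deviate together (correlation -0.0085 and -0.08 in the Virma and Mettl3 tables), so numbers were not taken as pairs. Data were simulated for the difference between the responses (13494 genes). Of 100 genes changed by 1 log2 unit 47% were called, and of 100 changed by 2 75% were. In addition 13 unchanged genes were called, 9.63% of the calls at a threshold of 0.05. The simulation gave both tables the same spread per gene, while real replicates differed more in the Virma table. It also gave both labels the Virma response and added changes in Virma cKO only, so these rates need not hold for the real data.

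Genes were named by a rule: the targeted genes, 8 lineage genes, from every list a maximum of 4 genes by adjusted p, plus any needed for its roles, the 10 most negative and 10 most positive differences at a mean of at least 10 CPM, and genes by class of response. The members, gene lists and rules were chosen with earlier results of these data known. Some genes the rule names are not reported here. Alternatives were RLE factors, library totals, ribosomal protein scaling, DESeq2 1.42.0, other filters, a replicate block, leaving out each library and a log2 minimum of 1; limma-voom (limma 3.58.1) with a variance for each table and opposed calls from separate fits were added after seeing the data. Promoter windows and transcripts came from RefSeq and GENCODE on GRCm38 and were matched by symbol, not by coordinate.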

Additional observations from a re-analysis of the deposited data

Results flagged for a closer look

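The test of the difference itself called 2726 genes, which answers the main comparison and is described above. Among genes called in the Mettl3 response and not in the Virma response, those with a called difference included Lgals3bp (-1.34 ± 0.35 log2 units, Virma response minus Mettl3 response) and Helz2 (-1.16 ± 0.33). In both of these the Mettl3 cKO libraries stood above their WT, while the Virma response was -0.16 ± 0.26 for Lgals3bp and -0.13 ± 0.25 for Helz2, neither of them called. In all, 22 genes had a called difference with a response larger in size with Mettl3, 20 of them with a mean of at least 10 CPM.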

How the results depend on the processing

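The genes whose response differed numbered 2726 and stayed within 1.5 times that count with RLE factors (2838), library totals (2733), no low-count filter (2975), a 1 CPM filter (2740), DESeq2 (2412), limma-voom (2840) and the replicate block (2021). They numbered 4352 with ribosomal protein scaling and 850 with the log2 minimum, and 1633 to 3377 leaving out single libraries. The Virma response gave 1767 calls with the log2 minimum and 4885 to 5636 leaving out single libraries. The Mettl3 response gave 100 calls, 173 without a low-count filter, 518 fitted on its own table, 783 with limma-voom, 10 with the log2 minimum and 33 to 141 leaving out single libraries. Opposed calls numbered 0, 1 with DESeq2, 7 from separate fits, 18 with limma-voom and 0 to 2 leaving out single libraries, 2 without Virma WT replicate 1. PrE-E against EPI-E gave 4656 calls with the log2 minimum, 6746 with the replicate block and 6186 to 6831 leaving out single libraries; actinomycin D slopes gave 7252 over 0 to 3 h, 8982 with the block and 8318 to 9180 leaving out single libraries. The replicate block left 29 Mettl3 calls (the cause was not tested) and changed no other count by over 1.5 times.

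Ribosomal protein scaling turned the sign of small differences: Esrrb to 0.41, L1td1 to 0.30, Nid1 to 0.40, Sox2 to 0.36, Fmr1 to 0.042 and Igf2bp1 to 0.049. It turned Virma responses of Esrrb to 0.40 (0.18 with library totals), Igf2bp1 to 0.047, Nid2 to 0.39, Pmaip1 to 0.0066, Sox2 to 0.30 and Tfap2c to 0.00086, and list medians to 0.065 (core pluripotency) and 0.18 (Nodal and BMP) with Virma, and to 0.061 (glycolysis) and 0.0099 (cholesterol) for the difference; the cause is that scaling's own shift of all genes. Of 119 named genes with a called difference, 89 kept it without each single library and 30 lost it at least once, with adjusted p-values between 0.0511 and 0.566: Atf3, Cd34, Cdh1, Dppa2, Egr1, Etv4, Fgfr1, Fgfr3, Fmr1, Fn1, Foxd3, Fzd5, Grem1, Helz2, Herpud1, Hhex, Krt18, Krt8, Lgals3bp, Mdm2, Nodal, Pdgfrb, Phlda3, Pmaip1, Sp5, Spred1, Tead4, Xaf1, Zc3h13 and Zmat3. Leaving out 1 library moved 8 named differences by over 1.5 times: Amn, Foxd3, Hesx1, Hyal2, Ppp1r16a, Sp5, Tcf23 and Tfec. Of 45 named Mettl3 calls 15 were kept throughout and 30 lost at least once, with adjusted p-values up to 0.744. These included Col5a1, Lamb1, Nostrin, P4ha2, Pdpn, Pfkl, Pth1r, Serpinh1 and Srgn beside those given above. At 2 libraries a group, genes below about 10 CPM carry wide errors, and Mettl3 calls rest on both libraries of a group.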
